A study of Homo sapiens with 4 samples.

Results

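The loci of 4 pluripotency factor genes, NANOG, SOX2, POU5F1 and PRDM14, were searched for SMAD1 peaks. Peaks were taken by position alone, as every listed SMAD1 peak within 100 kb of 1 of the gene bodies on the human genome build hg19. This gave 14 peaks of the 12885 in both lists, namely 2 of 5203 untreated peaks and 12 of 7682 BMP4 peaks. The peaks came from chromatin immunoprecipitation and sequencing (ChIP-seq) of SMAD1 in the established line H1 of human embryonic stem cells (hESCs), kept in mTeSR1 on growth factor-reduced Matrigel. One group was left untreated and the other received BMP4 at 50 ng/ml for 60 min, and no other agent or allele separates them by the labels. Each condition has 1 list, for which replicate ChIP samples had been merged, so the values below have no spread between replicates and the conditions could not be compared by a test. The 2 input samples entered the peak calling only. Both groups rest on 1 cell line, and peak lists do not measure expression, so the hESC identity of the cells could not be checked against its markers here.

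BMP4 is a secreted growth factor whose receptors phosphorylate SMAD1 and its close relatives SMAD5 and SMAD8, which then enter the nucleus with SMAD4 and bind DNA. POU5F1 (also called OCT4), SOX2 and NANOG are the core transcription factors that hold human embryonic stem cells in the pluripotent state, and they bind one another's regulatory regions. PRDM14 is a PR-domain zinc finger protein that acts with them in human embryonic stem cells and in the germ line. Sustained BMP4 drives hESCs out of pluripotency. The study reports that a pulse shorter than the treatment used here, followed by washing, did so in most cells. This raises the question of whether SMAD1 occupies chromatin near these genes within the first hour of the signal.

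The gene bodies were chr12:7941992-7948657 for NANOG, chr3:181429712-181432224 for SOX2, chr6:31132114-31138451 for POU5F1 and chr8:70963886-70983562 for PRDM14, all in hg19. NANOG and SOX2 are transcribed from the plus strand, POU5F1 and PRDM14 from the minus strand. No annotation of hg19 was used, so peaks are placed by their distance to the gene and not by exon, intron or UTR. For the same reason, which gene lies nearest to a given peak was not determined. A peak listed at a member may lie closer to another gene. By gene order in RefSeq (GRCh38.p14), the nearest protein-coding neighbours are NANOGNB upstream and SLC2A14 downstream of NANOG, DNAJC19 and ATP11B on either side of SOX2, HLA-C upstream and TCF19 downstream of POU5F1, and NCOA2 upstream and SLCO5A1 downstream of PRDM14.

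The 250 bases before the start site are shown for the 2 members with an entry in the promoter table of RefSeq (GRCh38.p14), to set the DNA at the promoters beside the peak positions. POU5F1 was not in that table. Capitals mark matches, on either strand, to 4 short SMAD-binding sequences: CAGAC, the SMAD box, and the GC-rich words GGCGC and GGCCG with the longer GGCGCC, of which the last contains GGCGC.

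NANOG, chr12:7789152-7789401, plus strand: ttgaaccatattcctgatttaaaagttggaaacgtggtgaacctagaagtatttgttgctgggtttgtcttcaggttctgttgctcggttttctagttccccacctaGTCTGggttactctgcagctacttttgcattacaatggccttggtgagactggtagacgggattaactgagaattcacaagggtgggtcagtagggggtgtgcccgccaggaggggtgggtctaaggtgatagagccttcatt

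SOX2, chr3:181711675-181711924, plus strand: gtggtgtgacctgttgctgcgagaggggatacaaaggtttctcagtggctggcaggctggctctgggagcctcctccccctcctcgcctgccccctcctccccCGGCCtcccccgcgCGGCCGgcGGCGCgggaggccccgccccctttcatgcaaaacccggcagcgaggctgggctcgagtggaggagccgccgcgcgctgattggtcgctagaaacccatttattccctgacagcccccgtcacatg

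The NANOG promoter held 1 CAGAC match, written there as its reverse complement GTCTG, and none of the GC-rich motifs. The SOX2 promoter held 1 GGCGC match and 3 GGCCG matches, of which the pair in CGGCCG overlaps, and no CAGAC. Such short words are common. Among the 35116 promoters of the table, CAGAC was found in 38.0%, GGCGC in 44.5%, GGCCG in 44.7% and GGCGCC in 16.4%. The GC content was 47.6% for NANOG and 68.8% for SOX2, against a median of 58.0%. No listed peak of either condition reached these promoters, since the closest peak to NANOG lay 12.6 kb away and the closest to SOX2 16.2 kb away. The RefSeq model of NANOG is 9745 bp long against 6666 bp for the gene body used for distances, so its start may differ from the one used here by up to that gap of 3079 bp.

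After BMP4, SMAD1 peaks were listed within 100 kb of all 4 pluripotency factor genes, whereas in untreated hESCs they were listed within that limit of NANOG alone. This contrast depends on the limit, since untreated peaks lay 108 kb from SOX2 and 110 kb from POU5F1. It also depends on list length, since the single BMP4 peak at PRDM14 was lost when the BMP4 list was shortened to the length of the untreated list. The 12 BMP4 peaks divided into 4 at NANOG, 4 at POU5F1, 3 at SOX2 and 1 at PRDM14. Both untreated peaks lay upstream of NANOG. No peak of either list touched a gene body. To show how common a listed peak is, the genome was cut into 14816 windows of 209 kb, the mean length of the 4 loci with their flanks. At least 1 untreated peak was listed in 23.4% of these windows, which is near the 1 of 4 loci seen here. At least 1 BMP4 peak was listed in 35.6% of windows, against 4 of 4 loci. A BMP4 peak without any untreated peak was found in 23.8% of windows and at 3 of 4 loci (SOX2, POU5F1 and PRDM14). Windows with 3 or more BMP4 peaks made up 3.08% of all windows, and 3 of 4 loci (NANOG, POU5F1 and SOX2) reached that number, a limit set after the counts were seen. The windows were not matched for gene content, and the part that gene-rich or open chromatin has in these counts was not tested.

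**Figure D1:**
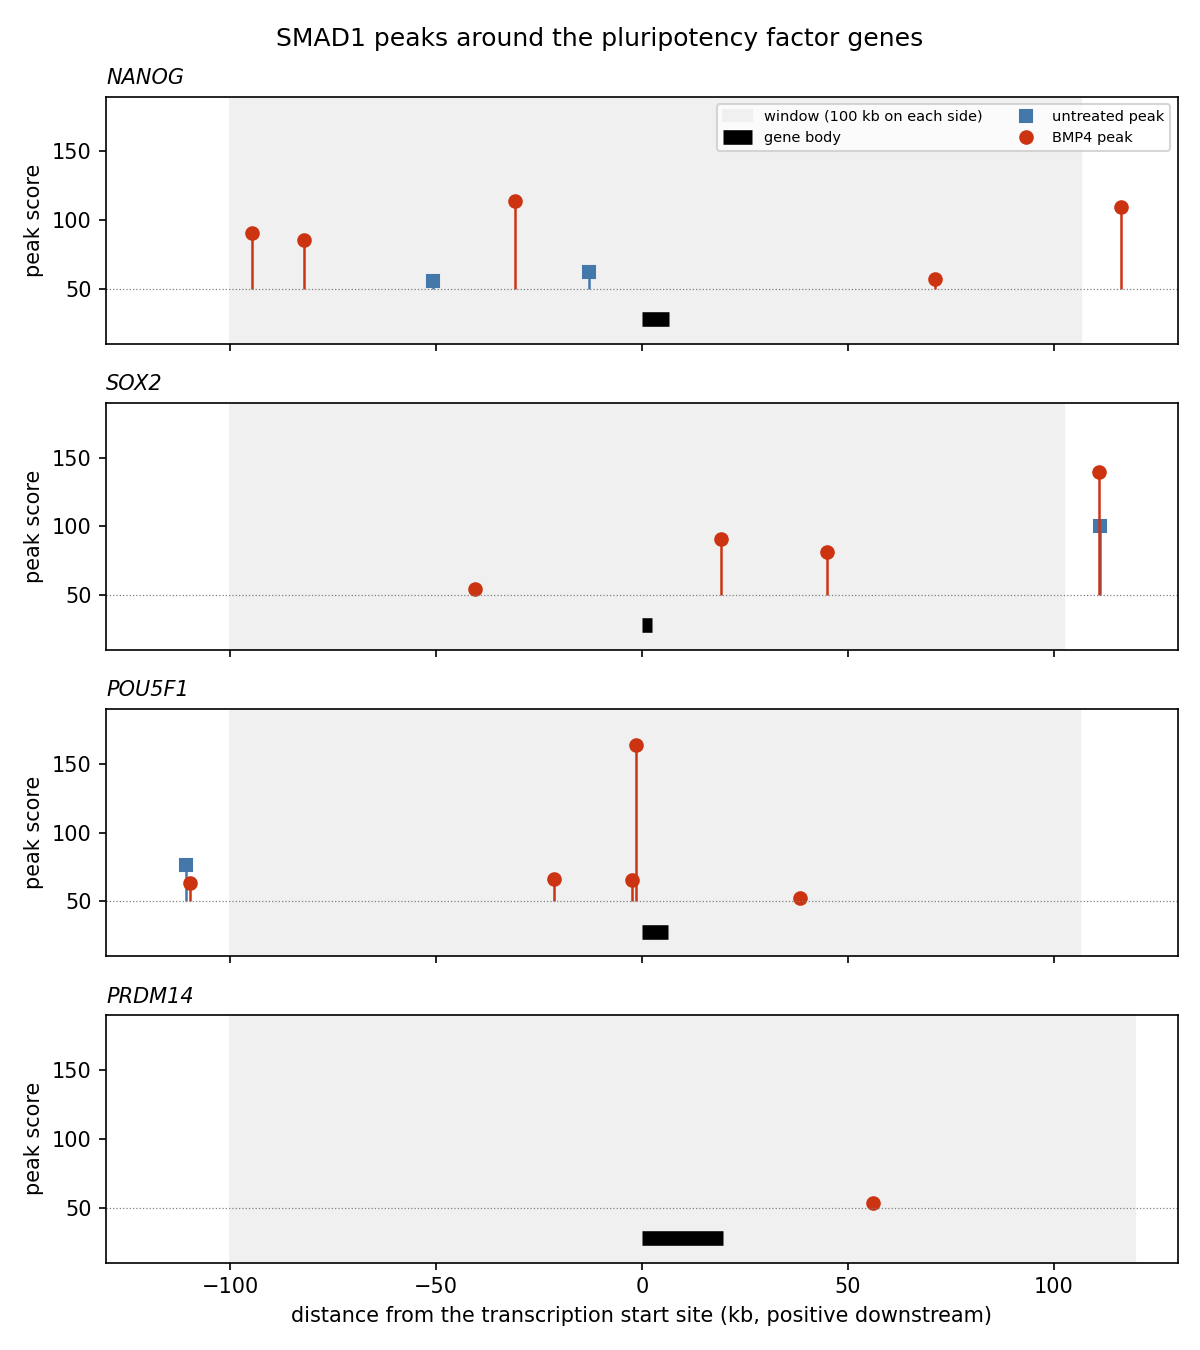
Listed SMAD1 peaks at the 4 loci, each drawn at its midpoint by distance from the transcription start site (kb, positive downstream) and by its peak score (stems start at 50, the lowest score in the lists). Within the grey windows, 12 BMP4 peaks (red circles) are spread over all 4 loci, with a single downstream peak at PRDM14, and 2 untreated peaks (blue squares) lie upstream of NANOG. The peaks drawn outside the grey windows lie beyond 100 kb and were not counted.

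The score of a peak comes from the peak caller and was read as minus 10 times the log10 of the peak's p-value against input. It rises with depth and width. Where a list has no peak, this means only that no peak with a score of 50 or more was listed there. The filter behind the lists is uncertain, so such a region need not have scored under 50.

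POU5F1, which encodes OCT4, had the closest and the highest-scoring peak of the 4 loci. The BMP4 peak at chr6:31139450-31140395 began 999 bp upstream of the start site, was 946 bp wide and scored 164. That score stood at rank 827 of 7682, with 89.2% of the BMP4 list below it. A second BMP4 peak at chr6:31140465-31141265 began 70 bp beyond the first, 2.01 kb upstream of the gene. It was 801 bp wide and scored 65.8, higher than 54.8% of the list. Together these peaks spanned the stretch from 999 to 2814 bp upstream of the start site, on the side where POU5F1 is known to carry its proximal and distal enhancers. Whether they mark separate sites or a single enriched stretch that the caller divided was not tested.

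**Figure D2:**
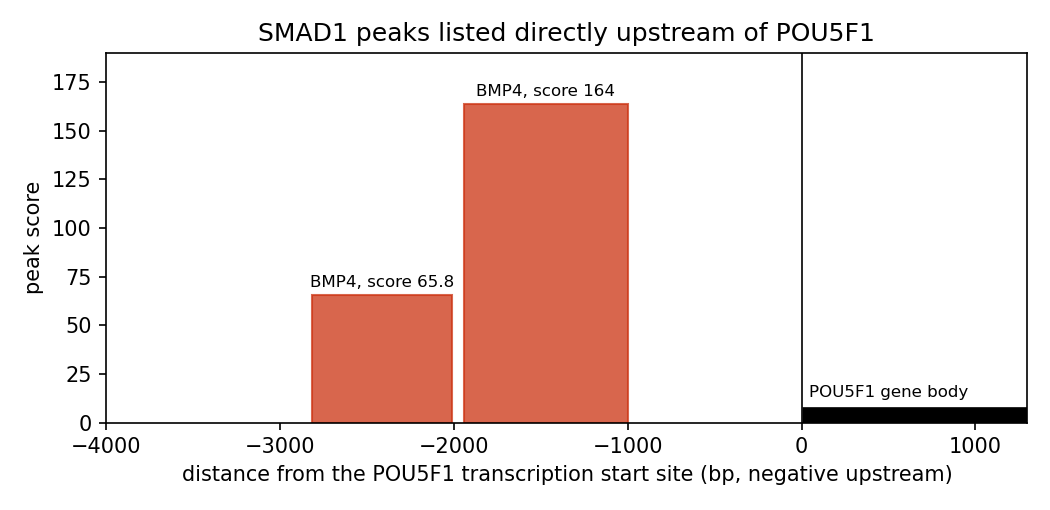
The stretch directly upstream of POU5F1, with distance from the start site in bp on the horizontal axis and peak score on the vertical axis. Each red block is 1 BMP4 peak drawn over its full width (946 bp with a score of 164, and 801 bp with a score of 65.8). No untreated peak is listed in the range drawn.

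The other two BMP4 peaks at POU5F1 were farther out. The peak at chr6:31159386-31159980 lay 20.9 kb upstream, with a width of 595 bp and a score of 66.5. The peak at chr6:31099846-31100441 lay 31.7 kb downstream, with a width of 596 bp and a score of 52.5, which was the lowest among all 12. No untreated peak was listed within 100 kb of POU5F1. The nearest was at chr6:31248704-31249554, 110 kb upstream with a score of 76.3.

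SOX2, a high-mobility-group factor that pairs with OCT4 on DNA, had BMP4 peaks on both sides. The nearest, at chr3:181448431-181449390, lay 16.2 kb downstream, was 960 bp wide and scored 90.8. A peak at chr3:181474172-181475186 followed 41.9 kb downstream, with a width of 1015 bp (the widest of the 12) and a score of 81.5. Both scored above at least 71.3% of the BMP4 list. The upstream peak at chr3:181388970-181389544, 40.2 kb from the gene, was the narrowest at 575 bp and scored 54.3, above 21.3% of the list. No untreated peak was listed within 100 kb of SOX2. The first one lay 108 kb downstream, just outside the limit, and had a BMP4 partner described below.

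NANOG, a homeodomain factor, was the single locus with peaks in both lists, and these lay at different positions. The untreated peaks were upstream. The one at chr12:7928836-7929442 was 12.6 kb from the gene, 607 bp wide and scored 62.5, above 51.9% of the untreated list. The other, at chr12:7891076-7891624, was 50.4 kb from the gene, 549 bp wide and scored 55.8, above 31.6% of that list.

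Of the BMP4 peaks at NANOG, 3 lay upstream and 1 downstream. The nearest, at chr12:7910634-7911585, was 30.4 kb upstream, 952 bp wide and scored 114, so that 83.3% of the BMP4 list scored lower. It fell between the untreated peaks, 17.3 kb from one and 19.0 kb from the other. The peaks at chr12:7859554-7860295 and chr12:7846822-7847833 lay 81.7 kb and 94.2 kb upstream. Their widths were 742 and 1012 bp and their scores 86.0 and 90.4. In RefSeq gene order, NANOGNB, CLEC4C and DPPA3 follow NANOG on this side, and DPPA3 is itself a gene of the germ line and early embryo. Genes beyond DPPA3 were not looked up, and which gene lies nearest to these peaks was not determined. The downstream peak at chr12:8012877-8013465 was 64.2 kb away, with a width of 589 bp and a score of 57.4. The nearest peak to NANOG was thus an untreated one, the opposite of the order at the other three genes.

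PRDM14 had the sparsest surroundings. A single BMP4 peak at chr8:70927171-70927760 lay 36.1 kb downstream, was 590 bp wide and scored 53.6, with 17.6% of the BMP4 list below it. No untreated peak was listed within 100 kb. The first lay 361 kb downstream.

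None of the 14 peaks overlapped a peak of the other list, while 18.3% of all untreated and 12.7% of all BMP4 peaks did. For the 12 BMP4 peaks, a count of 0 allows a share of up to 25.0% (3 counts of 12), which covers counting error only and treats the peaks as independent. Peaks with scores like those at the loci seldom had a partner anywhere. Among the 6047 BMP4 peaks scoring between 52.5 and 164, the range at the 4 loci, 456 had one, or 7.54%. The absence of partners at these loci is therefore near what the list holds at such scores. From a peak at the loci to the nearest peak of the other list, the distance ran from 17.3 kb at NANOG to 324 kb at PRDM14.

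The nearest peaks outside the 100 kb limit included partnered ones. At SOX2, the untreated peak at chr3:181540375-181541233 (108 kb downstream, score 100) overlapped the BMP4 peak at chr3:181540261-181541140 (score 139). At POU5F1, an untreated and a BMP4 peak lay 110 and 109 kb upstream with scores of 76.3 and 63.1 and came within 175 bp of each other without overlap. At NANOG, an unpartnered BMP4 peak with a score of 109 lay 109 kb downstream, and a pair of overlapping peaks lay 285 kb downstream, with a score of 56.9 in the untreated and 53.0 in the BMP4 list. At PRDM14, an unpartnered BMP4 peak with a score of 61.1 lay 120 kb downstream. The pair at 361 kb downstream of that gene had the highest scores named here, 828 in the untreated list and 254 after BMP4. Just inside the limit, the farthest counted peak was the one 94.2 kb upstream of NANOG.

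At POU5F1, SOX2 and PRDM14 the nearest BMP4 peak was closer than the nearest untreated peak, and at NANOG it was farther. From the midpoints of all genome windows, the nearest BMP4 peak was a median of 172 kb away and the nearest untreated peak 299 kb. Since a gene body is longer than a midpoint, each gene was set against stretches of its own length centred on the windows. The nearest BMP4 peak was 999 bp from POU5F1, and 2.09% of such stretches had a BMP4 peak as near (0.709% of bare midpoints). The corresponding shares of stretches were 7.80% for SOX2 (16.2 kb), 14.0% for NANOG (30.4 kb) and 18.2% for PRDM14 (36.1 kb). For the untreated list they were 4.43% for NANOG (12.6 kb), 24.3% for SOX2 (108 kb), 25.1% for POU5F1 (110 kb) and 56.8% for PRDM14 (361 kb).

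The density of BMP4 peaks was highest next to the genes. Within 50 kb of the 4 gene bodies, 9 BMP4 peaks were listed in 0.435 Mb, or 20.7 per Mb, against 2.48 per Mb over all windows. All 4 loci contributed, with 4 peaks at POU5F1, 3 at SOX2 and 1 each at NANOG and PRDM14. Between 50 and 100 kb there were 3 peaks, all at NANOG (7.50 per Mb). The density was 5.83 per Mb from 100 to 250 kb, 5.0 from 250 to 500 kb and 1.75 from 500 to 1000 kb. Untreated densities were 2.30 per Mb within 50 kb, 2.50 in each of the next 3 intervals and 2.00 from 500 to 1000 kb, against 1.68 over all windows. Within 50 kb and from 50 to 100 kb the untreated values rest on 1 peak each, at NANOG, so a slope could not be judged. All these densities rest on 1 to 10 peaks per interval and list. The BMP4 peaks within 50 kb include the POU5F1 peaks that lie 70 bp apart, and the windows were not matched for gene content.

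**Figure D3:**
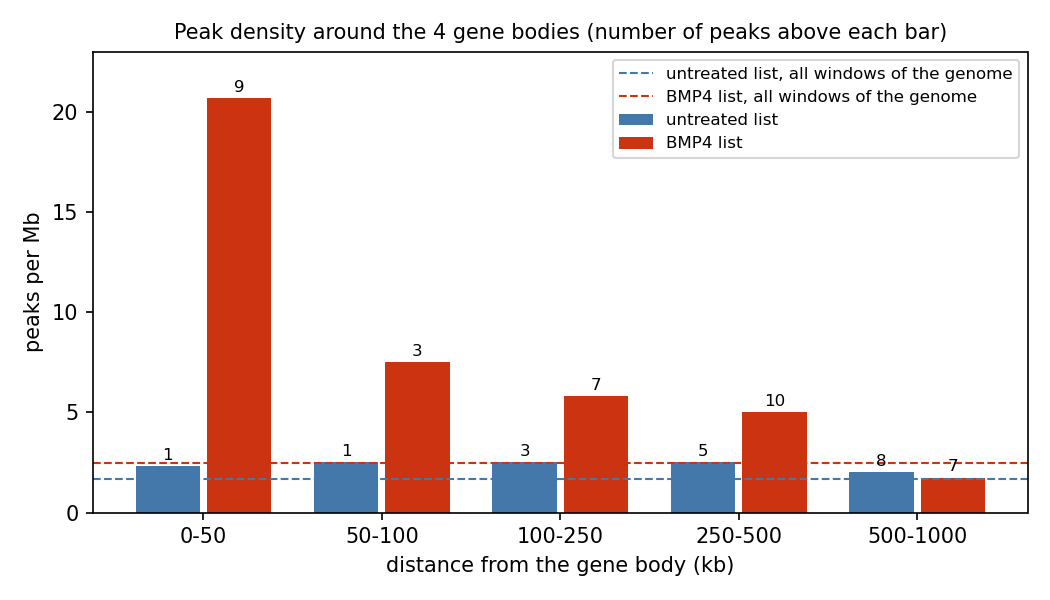
Density of listed peaks (peaks per Mb, bars from 0) by distance from the 4 gene bodies in kb, with the number of peaks above each bar and intervals of unequal width. Dashed lines give the density over all windows of the genome. BMP4 bars fall from 20.7 per Mb within 50 kb to 1.75 per Mb from 500 to 1000 kb, and untreated bars stay between 2.00 and 2.50.

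The BMP4 list is 1.48 times as long as the untreated list, and this bears on the counts. Of the 14 peaks at the loci 85.7% were BMP4 peaks, against 59.6% over both whole lists. Peaks of a single list are not replicates, and neighbouring ones at POU5F1 lie 70 bp apart. Whether the excess at these loci goes beyond the longer list was therefore not tested. Shortening the BMP4 list to its 5203 highest-scoring peaks, which removed those scoring under 57.1, left 9 of the 12 peaks. PRDM14 then had none, and POU5F1 and SOX2 lost 1 each.

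Scores at the loci spread over much of the BMP4 list but stayed far below its top. The 12 BMP4 peaks had a median score of 74.0 (52.5 to 164), against 63.3 for the whole BMP4 list, and 8 of 12 lay above the list median. A score of at least 100 was held by 2 of 12, the peaks at NANOG (114) and POU5F1 (164), near the 20.2% of the whole list. Their median width was 772 bp (575 to 1015 bp) against 674 bp in the list. None came close to the top of the list, which reaches 3158, and the best rank among them was 827. The untreated peaks ranked 2500 and 3555 of 5203. The study's methods state far shorter peak sets than these lists, with more peaks in untreated than in BMP4-treated cells. All 14 peaks rank below the numbers given there, so none would be among the same number of top-scoring peaks. By the study's account, its peak sets include non-specific enrichment at tRNA regions. The top of the deposited lists may hold such peaks too, which was not tested here. The untreated peaks at NANOG, at 55.8 and 62.5, lay on either side of the untreated list median of 61.7. By side, 7 BMP4 peaks lay upstream and 5 downstream of their gene.

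**Figure D4:**
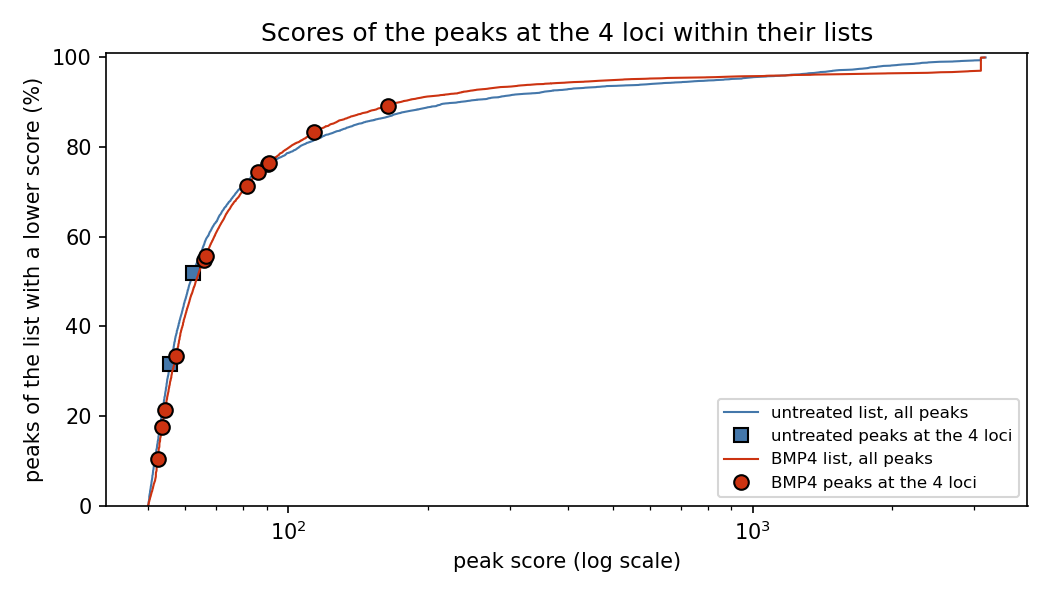
Share of each list (%) with a lower score, against peak score on a log axis, for all untreated (blue line) and BMP4 peaks (red line), with the peaks at the 4 loci marked. The 12 BMP4 peaks run from a score of 52.5 to 164 and the 2 untreated peaks from 55.8 to 62.5. The BMP4 list reaches a score of 3158, and between 10.5 and 89.2% of it scored lower than these BMP4 peaks.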

How the data were processed

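Deposited were 2 peak lists, 1 for untreated and 1 for BMP4-treated H1 hESCs. According to the study's methods and the submitters' processing notes, the authors aligned reads to hg19 with BWA 0.7.5a, merged replicates and called peaks against input with MACS 1.4.2 at default settings. The deposited lists are many times longer than the peak numbers stated in the methods, and the order of the conditions by length is the reverse, so the run or filter behind them is uncertain. Per the deposited files, each peak has a position and a score given by the authors' peak caller, with a minimum of 50 in both lists, which would be a p-value of 1e-05. The lists hold no read counts. The methods give a mean number of aligned reads across ChIPs and inputs together but no depth per list, so scores are only set side by side.

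Groups came from the sample titles. Peak starts were made 1-based. Distance is measured between the nearest edges of peak and gene body (no test), and a partner shares at least 1 bp. Strand and gene order came from GENCODE v44 and RefSeq on hg38, from which no coordinate was transferred. Genome windows were laid from the first base of each chromosome to its last listed peak. The distance and overlap steps were tested on simulated lists. Python 3.11.15, numpy 2.4.6, pandas 2.3.3, scipy 1.17.1 and matplotlib 3.10.9 were used. Every peak within 100 kb and the nearest peak of each list were named. The genes, the limit and the lists of alternatives were chosen with earlier results of these data known. Alternatives covered the limit, the start site as reference, score, width, list length and the definition of a partner. The sequence under the peaks was not analysed here, as no hg19 genome was used.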

Additional observations from a re-analysis of the deposited data

How the results depend on the processing

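With 50 kb on each side the untreated count was 1. With 250 kb there were 5 untreated and 19 BMP4 peaks, 3 loci with an untreated peak and 2 partnered peaks, and with 500 kb the values were 10, 29, 4 and 6. With a minimum score of 100 in both lists, 0 untreated and 2 BMP4 peaks were left, at 0 and 2 loci. These 13 values differ from those reported by over 1.5 times, as wider windows and fewer peaks by construction do. The other 24 stayed within 1.5 times, among them every value with the start site as reference. Values with peaks of at most 5000 bp and with the other definitions of a partner also stayed, but these could not have changed. The widest peak at the loci had 1015 bp, and the nearest peak of the other list lay 17.3 kb away. A partner count of 0 also cannot fall under a stricter definition. The nearest untreated peak to NANOG and the nearest BMP4 peaks to SOX2 and PRDM14 scored under 100, so a presence within 100 kb there rests on peaks scoring under 100. Moving the genome windows by 0.5 of their length, an alternative chosen after seeing the data, gave 35.5%, 23.5% and 3.01% in place of 35.6%, 23.4% and 3.08%. Stretches as long as the gene, also chosen then, replaced midpoints for the nearest peaks, which moved the share at POU5F1 from 0.709% to 2.09%. No paired analysis was possible because a condition is represented by a single merged list, which leaves no replicates to pair.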
